A study of Rattus norvegicus with 6 samples.

Results

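Chemokines are small secreted proteins that draw leukocytes along a gradient, and 10 of their genes were followed here in rat joint surface cells: Ccl2, Ccl7, Ccl20, Cxcl1, Cxcl2, Cxcl6, Cxcl10, Cxcl12, Cxcl16 and Cx3cl1. They were taken by name as chemokines that stromal cells can make, with earlier results of these data known. All 10 were found among the 32161 genes of the count table. The cells were primary cultures of the superficial layer of rat articular cartilage, held without flow (0 dyne/cm², called static) or exposed to a fluid shear stress of 20 dyne/cm² (called shear). Each group had 3 libraries of 33342775 to 33979479 counts. The labels give no strain, age, sex or duration of flow. Whether replicate libraries stem from different animals or dishes is also unstated, and every p-value here therefore rests on a spread between libraries that could be purely technical. The design sets sheared against unsheared cells.

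The chemokine family is divided by the spacing of its first cysteines into CC, CXC and CX3C ligands. Each ligand binds G protein-coupled receptors on leukocytes, and many are induced in fibroblasts and chondrocytes by interleukin-1 or tumour necrosis factor through the transcription factor NF-kappaB. In joints, CCL2 and CCL7 are best known for recruiting monocytes, and the CXC ligands of the CXCL1 type for recruiting neutrophils. CXCL12 is made constitutively by mesenchymal cells, and CXCL16 and CX3CL1 are made as membrane proteins from which a soluble chemokine is cut.

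Under shear, Ccl2 and Ccl7 rose, Cxcl1 fell, and Cxcl2, Cxcl6, Cxcl12 and Cxcl16 did not pass the test. Ccl2 increased 2.11-fold (95% interval 1.97 to 2.26, n = 3 each), and Ccl7 increased 1.68-fold (1.48 to 1.90). Cxcl1 went to 0.843 of its static level (0.783 to 0.908). The other 3 genes, Ccl20, Cxcl10 and Cx3cl1, had too few counts to be tested. The 7 tested chemokines thus held 2 higher and 1 lower gene, beside 18.5% of all 13945 tested genes called in either direction (10.8% higher and 7.71% lower; edgeR adjusted p under 0.05). Over all genes this was 1508 higher and 1075 lower, a balance that moved to 1275 and 1364 with upper-quartile scaling and to 1124 and 1730 with library totals alone, while the 3 chemokine calls stayed. The median log2 fold change was 0.09 over the 7 tested chemokines and -0.01 over all tested genes. In such bulk libraries, fewer cells that make a transcript and less of it per cell cannot be told apart.

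**Figure D1:**
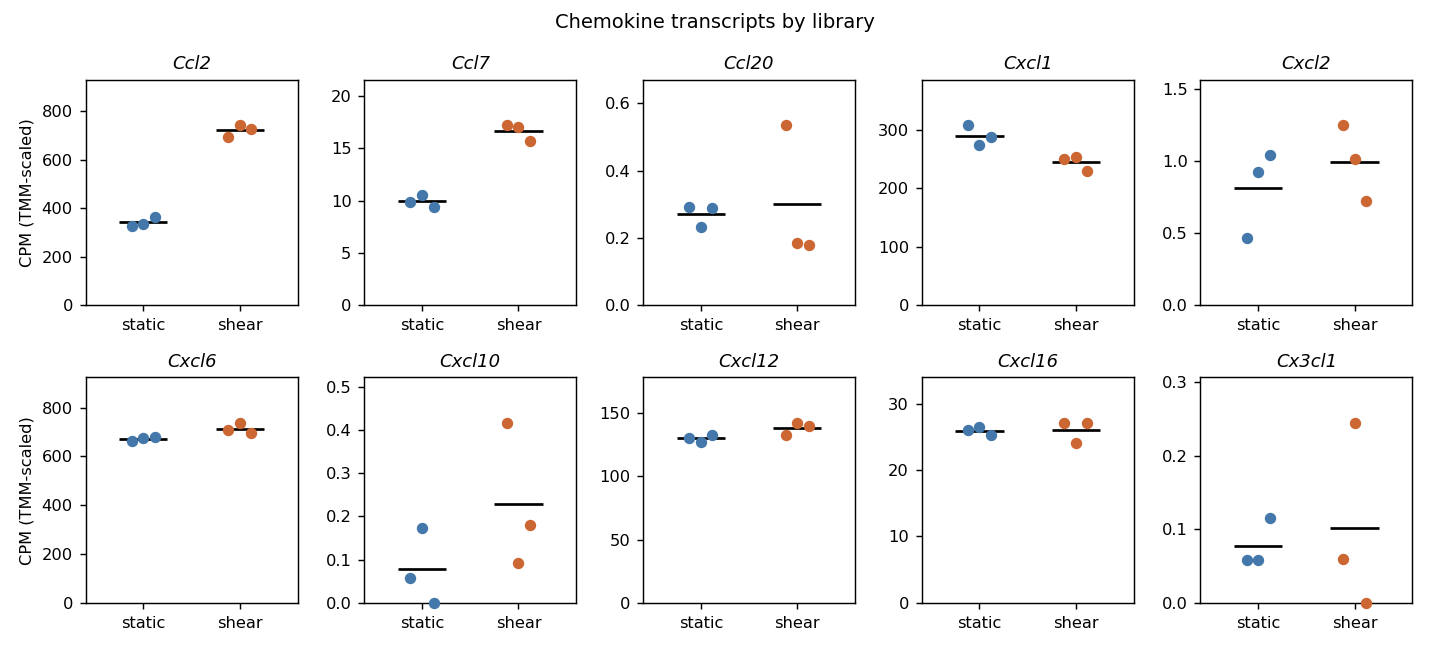
Each panel shows 1 chemokine gene; the y axis is the level in CPM (counts per 1000000 counts of a library, scaled by TMM factors) from 0, points are single libraries (blue static, orange shear) and the black line is the group mean. Ccl2, Ccl7 and Cxcl6 lie higher in every shear library and Cxcl1 lower, while Ccl20, Cxcl10 and Cx3cl1 stay under 1 CPM. Cxcl6 did not pass the test, and groups did not overlap in 32.7% of all tested genes.

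The labelled cell type was checked against its markers. Of 10 cartilage and superficial zone markers, 7 were tested. The lubricin gene Prg4, Acan, Sox9 and Abi3bp were present at 6.54 to 21.8 CPM in static libraries. Cilp, Matn3 and Comp, the other 3 tested, were scarce, with 0.891, 0.688 and 0.377 CPM in static libraries. The main cartilage collagen gene Col2a1 had only 4 to 8 counts per library, and Hapln1 and Col9a1 had 0 to 2. Among the 7 tested, Sox9 (log2 fold change 1.26), Abi3bp (0.41) and Prg4 (0.25) were higher under shear and Acan (-0.34) lower, beside 10.8% and 7.71% of all tested genes. Cilp (-0.22), Matn3 (-0.51) and Comp (-0.47) did not pass, and the median log2 fold change of the 7 was -0.22. All 10 summed to 62.2 to 64.5 CPM in static and 78.8 to 80.5 CPM in shear libraries. The 7 fibroblast markers found in the table summed to 12250 to 12830 CPM in static and 13190 to 14130 CPM in shear libraries, led by Col1a1 and Col3a1, which did not pass the test. Of these 7, Lum (log2 fold change 0.32), Pdpn (0.25) and Dcn (0.17) were higher and Pdgfra (-0.20) was lower, beside 10.8% and 7.71% of all tested genes. The part of these markers in the chemokine results was not tested. Leukocytes can also make these ligands. The 11 leukocyte markers found summed to 9.10 to 10.02 CPM in static and 8.11 to 9.65 CPM in shear libraries. Of the 3 tested ones, Cd14 had 5.62 CPM in static and 6.04 CPM in shear libraries. Csf1r had 2.20 and 1.55 CPM, and Cd68 0.688 and 0.785 CPM. Cd14, Cd68 and Csf1r had edgeR adjusted p-values of 0.63, 0.78 and 0.12. Lyz2 had 6 to 51 counts in static and 2 to 4 in shear libraries. Ptprc (CD45) had 2 to 11 counts in static and 0 in shear libraries, and Laptm5 and Cd79a had 0 in all 6. The 8 endothelial markers found summed to 16.2 to 17.8 CPM in static and 12.1 to 14.3 CPM in shear libraries, with Cldn5 and Emcn at 0 in all 6. The 4 tested, Kdr, Egfl7, Tek and Vwf, had 7.28, 5.83, 3.28 and 0.523 CPM in static libraries. Of these, Kdr was lower under shear (log2 fold change -0.98), beside 7.71% of all tested genes, and 3 did not pass.

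The start regions of the ligands are printed to show a sequence feature that genes moving in opposite directions share. Start regions of 9 of the 10 chemokines were matched in RefSeq (assembly GRCr8), each reaching from 250 bases before to 50 bases after the annotated start; Ccl2 was not matched. The 250 bases before the start follow for Ccl7, which rose, Cxcl1, which fell, and the abundant Cxcl6 and the constitutive Cxcl12, which did not pass the test. They lie at chr10:67513845-67514094 (plus strand), chr14:17479322-17479571 (minus strand), chr14:17596418-17596667 (minus strand) and chr4:152060531-152060780 (plus strand) of GRCr8, each read 5′ to 3′ on the gene's own strand. Capitals mark matches to the NF-kappaB consensus on either strand.
Ccl7: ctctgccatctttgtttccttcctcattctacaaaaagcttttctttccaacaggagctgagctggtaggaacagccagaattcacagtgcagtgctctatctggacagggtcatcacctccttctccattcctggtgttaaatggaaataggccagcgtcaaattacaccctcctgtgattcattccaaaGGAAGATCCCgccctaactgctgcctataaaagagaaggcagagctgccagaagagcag
Cxcl1: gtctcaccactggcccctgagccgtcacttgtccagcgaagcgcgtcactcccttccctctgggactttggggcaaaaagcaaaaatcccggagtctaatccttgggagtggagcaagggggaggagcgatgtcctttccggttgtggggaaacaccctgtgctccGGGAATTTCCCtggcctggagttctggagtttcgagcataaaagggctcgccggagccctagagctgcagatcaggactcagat
Cxcl6: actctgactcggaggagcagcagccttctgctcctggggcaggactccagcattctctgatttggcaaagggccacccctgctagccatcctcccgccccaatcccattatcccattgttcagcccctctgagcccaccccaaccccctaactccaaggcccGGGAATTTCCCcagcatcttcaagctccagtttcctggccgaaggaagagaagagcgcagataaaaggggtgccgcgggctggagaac
Cxcl12: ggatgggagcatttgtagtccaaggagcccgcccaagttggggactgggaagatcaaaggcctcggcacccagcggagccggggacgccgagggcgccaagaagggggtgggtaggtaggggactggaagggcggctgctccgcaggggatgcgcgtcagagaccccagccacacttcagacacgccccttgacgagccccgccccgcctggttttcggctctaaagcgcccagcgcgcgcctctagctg

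The NF-kappaB consensus was found in 6 of the 9 matched start regions, those of Ccl7, Ccl20, Cxcl1, Cxcl2, Cxcl6 and Cxcl10, against 7.51% of all 33469 RefSeq start regions of the same length and 10.1% of those of tested genes. Cxcl12, Cxcl16 and Cx3cl1 had no match in this window. Cxcl1 and Cxcl6 carried the same letters, GGGAATTTCC, starting 84 and 88 bases before the start, and both strands matched in overlapping positions. In Ccl7 the match was on the opposite strand, GGGATCTTCC, with its first base in the gene's direction 59 bases before the start. The regions with a match therefore belonged to a gene that rose, one that fell, 2 that did not pass and 2 with too few counts. The AP-1 letters TGANTCA were found in Ccl7 and Cxcl10, against 7.33% of all regions and 5.1% of those of tested genes. The TATA letters TATAA were found in Ccl7, Ccl20, Cxcl10 and Cx3cl1, against 26.2% and 13.6%. These TATAA matches began 34, 37, 162 and 78 bases before the start, in that order. Both letter patterns were searched on both strands. A match describes letters and does not show that a factor binds.

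By level, the ligands fell into abundant, intermediate and barely detected genes. Levels between genes are given in FPKM, CPM divided by the exon length in kilobases. Static cells had 414 ± 5 FPKM of Cxcl6, 409 ± 23 of Ccl2 and 313 ± 19 of Cxcl1 (SD, n = 3). Cxcl6 and Ccl2 did not differ beyond their spread. Among all 13945 tested genes by static FPKM, Cxcl6 was at rank 200, Ccl2 at 202 and Cxcl1 at 271. Cxcl12 followed at 24.0 ± 0.5, Cxcl16 at 15.2 ± 0.3 and Ccl7 at 11.7 ± 0.7 FPKM (SD, n = 3), each apart from its neighbours in every library. Cxcl2, at 0.757 ± 0.28 FPKM, and the untested genes made up the barely detected group.

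Under shear Ccl2 and Ccl7 each stood 1 place higher in this order, while Ccl20 kept the eighth place. Ccl2 took the first place with 864 ± 31 FPKM, at rank 90 of all tested genes, and Cxcl6 came next with 440 ± 14 FPKM (SD, n = 3). Ccl7, at 19.6 ± 1.0 FPKM, stood above Cxcl16 at 15.3 ± 1.1 FPKM, and the libraries of these genes did not overlap. Cxcl1 stayed in the third place at 264 ± 14 FPKM, and Cxcl12 in the fourth at 25.5 ± 1.0 FPKM. The neighbours Cxcl2 and Ccl20, and Ccl20 and Cxcl10, overlapped between libraries.

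**Figure D2:**
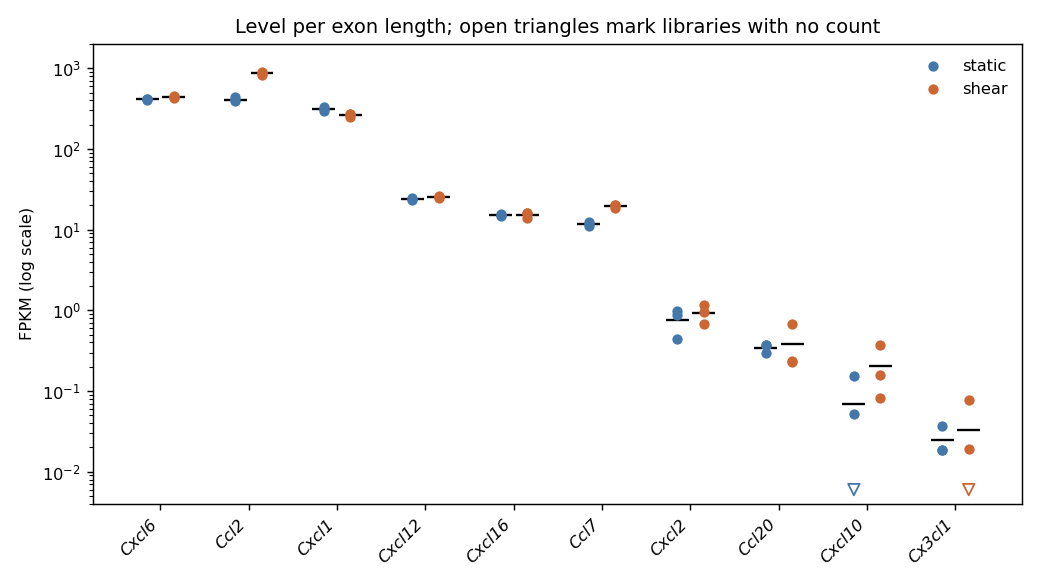
The y axis is the level of each chemokine in FPKM on a log scale, the x axis the genes in order of their static mean; points are single libraries (blue static, orange shear), black lines are group means, and open triangles mark libraries with no count. Cxcl6, Ccl2 and Cxcl1 lie more than 10-fold above Cxcl12, and the lowest 4 genes average under 1 FPKM in both groups.

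Ccl2 encodes the main monocyte attractant, a ligand of CCR2, and lies on chromosome 10, 69412017 to 69413870 on the plus strand in the coordinates of the count table, whose build the sources used here leave unnamed. Its level was 326, 336 and 363 CPM in static replicates 1 to 3 and 694, 744 and 726 CPM in shear replicates 1 to 3. Every shear library lay above every static library, and the lowest shear value was well clear of the highest static one. This is a log2 fold change of 1.08 with an SE of 0.05 (edgeR adjusted p = 2.8e-14). The gain of 379.8 CPM was the 18th largest among all tested genes, and its log2 fold change ranked 91st. Of all tested genes, 96 were called higher with at least a 2-fold change.

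Ccl7, which encodes another monocyte attractant of the CC family, starts 9.21 kb beyond the end of Ccl2 on the same strand (69423086 to 69424979). It had 9.91, 10.5 and 9.36 CPM in static replicates 1 to 3 and 17.2, 17.0 and 15.6 CPM in shear replicates 1 to 3. The groups did not overlap, as in 32.7% of all tested genes (16.7% with shear above, 15.9% with shear below). Ccl7 rose by 0.75 ± 0.09 on the log2 scale (SE, edgeR adjusted p = 5.2e-07). The next genes of this cluster in the table, Ccl11, Ccl12 and Ccl1, had 6 to 16, 0 to 2 and 0 to 2 counts per library and were not tested. The pair of detected CC ligands thus rose side by side on the chromosome.

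The ratio of Ccl2 to Ccl7 was taken within each library, where scaling between libraries has no part. Per exon length, static libraries held 35.2 ± 3.7 and shear libraries 44.3 ± 3.1 Ccl2 transcripts for each of Ccl7 (SD, n = 3 each). The highest static ratio, 39.4 in replicate 3, lay just under the lowest shear ratio, 41.0 in replicate 1. The exact two-sided permutation test gave p = 0.1 (0.1 after adjustment over 5 ratios), which is the smallest p that 3 against 3 libraries allow, so this design cannot bring a ratio under the threshold.

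Ccl20, the ligand of CCR6 on T helper 17 cells and immature dendritic cells (chromosome 9, 88918433 to 88921001, plus strand), was near the limit of detection. It had 10, 8 and 10 counts in static replicates 1 to 3 and 18, 6 and 6 counts in shear replicates 1 to 3. The groups overlapped, with shear replicate 1 highest and the other shear libraries lowest. Without the low-count filter its log2 fold change was 0.15 ± 0.59 (SE, edgeR adjusted p = 0.92), so that a change was not detectable at this depth.

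Among the neutrophil attractants, which act through CXCR2, Cxcl1 fell. The gene lies on chromosome 14, 18743685 to 18745457 on the minus strand. It had 308, 274 and 288 CPM in static replicates 1 to 3 and 250, 253 and 229 CPM in shear replicates 1 to 3. The lowest static library, replicate 2, lay above the highest shear library, replicate 2. Shear changed it by -0.25 ± 0.05 on the log2 scale (SE, edgeR adjusted p = 0.0011); its mean fell by 45.5 CPM. It stayed lower under each of the 15 alternatives, with log2 fold changes from -0.30 to -0.20 and adjusted p-values from 1.9e-05 to 0.020. All 15 start from the same counts, so they cannot address how reads were split between Cxcl1 and related genes.

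Cxcl6, the rat gene of another CXCR2 ligand, also called LIX, lies 115 kb from Cxcl1 on the same strand (18860264 to 18862407). It had 664, 673 and 679 CPM in static replicates 1 to 3 and 706, 739 and 696 CPM in shear replicates 1 to 3. The shear libraries lay above the static ones without overlap, but the difference was small. On the log2 scale it was 0.09 ± 0.04 (SE, 95% interval -0.0037 to 0.18, edgeR adjusted p = 0.19), so a rise of more than 1.13-fold lay outside the interval.

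Cxcl2, between the Mthfd2l gene and Cxcl1 on chromosome 14 (18731378 to 18733391, minus strand), codes for a neutrophil attractant close to CXCL1 and was scarce. It had 16, 32 and 36 counts in static replicates 1 to 3 and 42, 33 and 24 counts in shear replicates 1 to 3. The groups overlapped over most of their range. Its difference on the log2 scale was 0.29 ± 0.33 (SE, edgeR adjusted p = 0.62), with a 95% interval from -0.40 to 0.98. The interval leaves room for a fall as well as for a near doubling.

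Cxcl3, not one of the 10 but another CXC ligand gene of the cluster, had 263, 283 and 272 CPM in static replicates 1 to 3 and 336, 322 and 307 CPM in shear replicates 1 to 3. It rose by 0.24 ± 0.05 on the log2 scale (SE, edgeR adjusted p = 6.4e-04), while its neighbour Cxcl1, 74.7 kb away, fell. The ratio of Cxcl1 to Cxcl3 per exon length was 1.69 ± 0.16 in static and 1.203 ± 0.038 in shear libraries (SD, n = 3 each), and the groups did not overlap (exact two-sided permutation p = 0.1, the smallest the design allows). The ratio of Cxcl1 to Cxcl6 was 0.757 ± 0.052 in static and 0.600 ± 0.022 in shear libraries (SD, n = 3 each), again without overlap. Cxcl1, Cxcl2 and Cxcl3 are related copies, and the treatment of reads matching several of them is not stated in the sources used here, so the split between them is uncertain. The mean of Cxcl3 rose by 49.1 CPM, beside the fall of 45.5 CPM of Cxcl1. Whether the split of reads had a part in these changes was not tested. The Cxcl3 entry has 11 exon rows from 18820168 to 18839595, against 4 exon rows for Cxcl1. Values of Cxcl3 per exon length, here and in the ligand shares below, depend on that annotation.

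**Figure D3:**
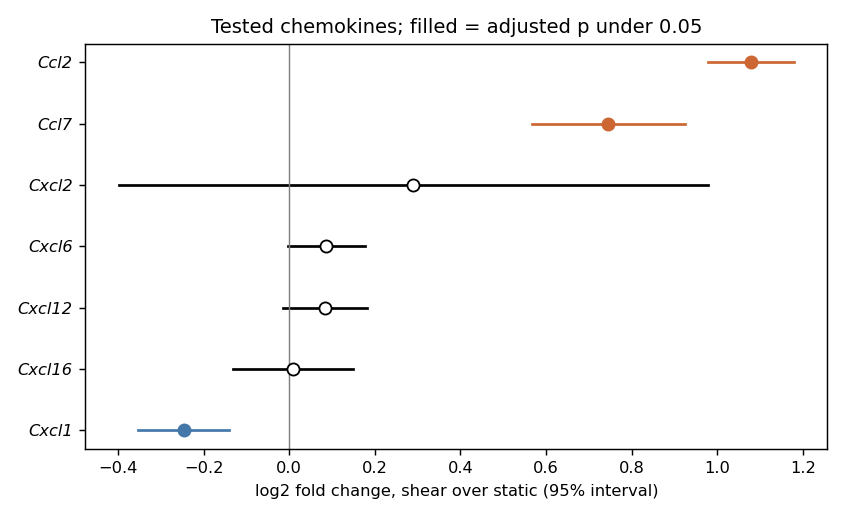
The x axis is the log2 fold change of shear over static for the 7 tested chemokines, with bars for the 95% interval; filled points have an edgeR adjusted p under 0.05. Ccl2 and Ccl7 lie to the right of 0 and Cxcl1 to the left, and the interval of Cxcl2 is the widest.

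Cxcl10 encodes an interferon-inducible ligand of CXCR3 on T cells (chromosome 14, 17210733 to 17212930, plus strand) and lies apart from the neutrophil attractants. It had 2, 6 and 0 counts in static replicates 1 to 3 and 14, 3 and 6 in shear replicates 1 to 3, with overlapping groups. Without the low-count filter its log2 fold change was 1.53 ± 0.89 (SE, edgeR adjusted p = 0.33). Its neighbours Cxcl11 and Cxcl9, the other CXCR3 ligands, had 0 counts in all 6 libraries.

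Cxcl12, which encodes the ligand of CXCR4 and of the scavenging receptor ACKR3 and retains blood progenitors in bone marrow, lies on chromosome 4 (149261044 to 149273891, plus strand). It had 131, 128 and 133 CPM in static replicates 1 to 3 and 132, 143 and 139 CPM in shear replicates 1 to 3. The groups overlapped. The difference was 0.08 ± 0.05 on the log2 scale (SE, 95% interval -0.015 to 0.18, edgeR adjusted p = 0.26). Its exons sum to 5423 bases, the longest of the 10, so that its 130 CPM in static libraries correspond to only 24.0 FPKM.

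The membrane-bound ligands stood at different levels. Cxcl16, whose product binds CXCR6 and also acts as a scavenger receptor, lies on chromosome 10 (57060007 to 57064600, minus strand). It had 26.0, 26.4 and 25.3 CPM in static replicates 1 to 3 and 27.2, 24.0 and 27.1 CPM in shear replicates 1 to 3, with shear replicate 2 the lowest of all. The difference was 0.01 ± 0.07 on the log2 scale (SE, 95% interval -0.13 to 0.15, edgeR adjusted p = 0.95), and its sign turned under 5 alternatives. Of its exon bases 119 (6.98%) overlap Zmynd15 on the opposite strand, and whether the counting used strand is not stated. Cx3cl1, the fractalkine gene (chromosome 19, 10644244 to 10653800, minus strand), had 2, 2 and 4 counts in static and 2, 8 and 0 counts in shear replicates 1 to 3. Without the low-count filter its log2 fold change was 0.37 ± 1.16 (SE, edgeR adjusted p = 0.90).

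Taken per exon length over all 34 chemokine ligand genes looked up in the table, the mixture of ligand transcripts shifted toward Ccl2. Its share was 28.6%, 29.6% and 30.9% in static replicates 1 to 3 and 45.4%, 46.8% and 47.8% in shear replicates 1 to 3. Cxcl1 took 22.7% ± 1.4 in static and 14.3% ± 0.6 in shear libraries, and Cxcl6 30.1% ± 0.4 and 23.7% ± 0.2 (SD, n = 3 each). A share of Cxcl6 can shrink without loss of its transcript, because the shares add up to the whole and Ccl2 rose. Ccl2, Cxcl1, Cxcl3 and Cxcl6 together made up 96.0% to 96.1% of ligand transcripts in static and 96.4% to 96.6% in shear libraries. The ratio of Ccl2 to Cxcl6 was 0.955, 0.971 and 1.04 in static and 1.91, 1.96 and 2.03 in shear replicates 1 to 3. The ratio of Ccl2 to Cxcl1 was 1.31 ± 0.12 in static and 3.28 ± 0.22 in shear libraries (SD, n = 3 each). For both ratios the groups did not overlap, with an exact two-sided permutation p of 0.1, the smallest possible here.

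**Figure D4:**
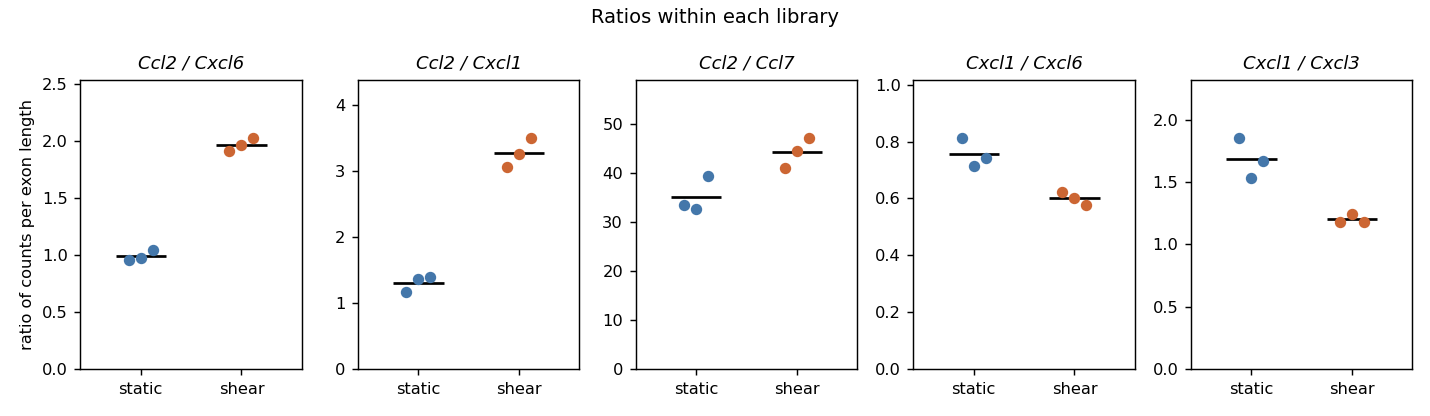
Each panel shows the ratio of 2 chemokine genes within each library, in counts per exon length from 0; points are single libraries (blue static, orange shear) and the black line is the group mean. All 5 ratios separate the groups, with Ccl2 rising against Cxcl6, Cxcl1 and Ccl7, and Cxcl1 falling against Cxcl6 and Cxcl3. Every ratio contains Ccl2 or Cxcl1, which were called on their own, so the separations are not independent of those calls.

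Other chemokine ligands were mostly silent. Of 24 looked up, 3 were tested, of which Cxcl3 rose (10.8% of all tested genes were higher); Cxcl13 and Cxcl14 had 0.833 and 1.01 CPM in static libraries and log2 fold changes of 0.05 ± 0.31 and 0.31 ± 0.28 (SE, edgeR adjusted p = 0.94 and 0.52). The list's median log2 fold change was 0.24. In 20 of the 24, including the leukocyte ligands Ccl3, Ccl4 and Ccl5, no library reached 10 counts.

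Receptors for these ligands were scarce too. Of 23, 22 were found in the table and 4 were tested, of which 1 fell (7.71% of all tested genes were lower); the median log2 fold change was -0.13. Ccr2, the receptor of CCL2, had 0 to 4 counts per library, Cxcr2 and Ccr6 had 0 in all 6, and Cxcr4 had 0 to 8. The tested receptors with the highest FPKM were Ackr4 and Ackr3, scavenging receptors that remove chemokines without classical signalling, while Ackr2 of the same kind had 0 counts in all 6. Ackr4, which takes up several CC ligands, had 16.6 CPM in both groups (log2 fold change -0.0034 ± 0.076, SE, edgeR adjusted p = 0.98). Ackr3, which takes up CXCL12, went from 13.8 to 11.5 CPM (log2 fold change -0.26 ± 0.09, SE, edgeR adjusted p = 0.039). That call ended without the low-count filter (0.051), with DESeq2 (0.063), and without static replicate 2 (0.10) or 3 (0.16) or shear replicate 1 (0.11), 2 (0.056) or 3 (0.11).

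Of 9 enzymes and regulators that cut chemokines loose or trim them, 8 were tested, of which 1 rose (10.8% of all tested genes were higher); the median log2 fold change was 0.03. The gene that rose was Timp3, an inhibitor of the sheddase ADAM17, from 2.60 to 5.23 CPM (log2 fold change 1.01 ± 0.16, SE, edgeR adjusted p = 3.3e-05). The sheddase genes Adam10 (-0.10 ± 0.05) and Adam17 (0.06 ± 0.04, log2 fold change and SE) did not pass, nor did the gene of the list with the highest CPM, the gelatinase gene Mmp2 (0.02 ± 0.04). Dpp4, whose product inactivates CXCL10 and CXCL12 by clipping them, had 0 to 14 counts per library.

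Cytokines and receptors that act upstream of chemokine genes held 7 higher and 1 lower of 18 tested, beside 10.8% higher and 7.71% lower of all tested genes, with a median log2 fold change of 0.06. Interleukin-1 alpha (Il1a) rose from 24.8 to 46.9 CPM (log2 fold change 0.92 ± 0.06, SE, edgeR adjusted p = 4.0e-11). Il6 rose by 1.46 ± 0.14 on the log2 scale (SE), and Il1b, at 0.174 CPM in static and 0.781 CPM in shear libraries, by 2.14 ± 0.51 (SE, edgeR adjusted p = 0.0037). Without shear replicate 1 the log2 fold change of Il1b was 1.47 ± 0.56 (SE, edgeR adjusted p = 0.078). Tnf, Il17a, Ifng and Ifnb1 had 0 counts in all 6 libraries. Among the receptors, Tnfrsf1b rose by 0.45 ± 0.11 and Il1rap by 0.35 ± 0.11 on the log2 scale (SE). The gene of the list with the highest CPM, Il6st, which encodes the shared receptor chain gp130, fell by 0.25 on the log2 scale from 505 CPM. The call of Il1rap ended with library totals alone (adjusted p = 0.058) and without static replicate 1 (0.063) or 2 (0.14) or shear replicate 1 (0.097) or 2 (0.087).

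Of 13 tested genes of the NF-kappaB system, 2 rose and 1 fell, beside 18.5% of all tested genes called in either direction (median log2 fold change 0.08). The subunit gene Rel rose from 3.23 to 4.65 CPM (log2 fold change 0.52 ± 0.15, SE, edgeR adjusted p = 0.014, and 0.096 without shear replicate 2). The kinase gene Chuk rose by 0.20 ± 0.06 (SE, edgeR adjusted p = 0.029), a call that ended with upper-quartile factors (0.061), library totals alone (0.098) and without static replicate 2 (0.17) or shear replicate 2 (0.12) or 3 (0.10). The inhibitor gene Nfkbia, itself a target of the pathway, fell from 32.3 to 25.5 CPM (log2 fold change -0.34 ± 0.08, SE, edgeR adjusted p = 0.0017). For the member with the highest CPM, Nfkb1, the value was 0.09 ± 0.06 (SE, edgeR adjusted p = 0.27).

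Interferon response genes, of which Cxcl10 is one by its textbook regulation, held 1 higher and 1 lower of 11 tested, beside 18.5% of all tested genes called, with a median log2 fold change of -0.12. Irf1, a transcription factor that activates Cxcl10, fell from 9.54 to 5.06 CPM (log2 fold change -0.91 ± 0.12, SE, edgeR adjusted p = 2.6e-06). The antiviral gene Mx1 rose by 0.83 ± 0.14 (SE). Of 8 factors that control the decay of AU-rich messengers, among which chemokine transcripts count, all were tested, and 3 were higher and 1 lower, beside 10.8% and 7.71% of all tested genes (median log2 fold change 0.18). The genes that rose were the 3 of the destabilising Zfp36 family: Zfp36l1 from 40.4 to 67.0 CPM (log2 fold change 0.73 ± 0.06, SE, edgeR adjusted p = 1.5e-09), Zfp36l2 by 0.35 ± 0.05 and Zfp36 by 0.38 ± 0.11 on the log2 scale. The call of Zfp36 ended without static replicate 1 (adjusted p = 0.072) or 3 (0.056) or shear replicate 2 (0.051) or 3 (0.059). Hnrnpd, the member with the highest CPM at 1210 CPM in static libraries, fell by 0.14 on the log2 scale (edgeR adjusted p = 0.034). Its call ended with the replicate block (0.068) and without static replicate 1 (0.23) or 2 (0.064) or shear replicate 1 (0.065) or 3 (0.16). Whether any of these genes had a part in the chemokine changes was not tested.

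**Figure D5:**
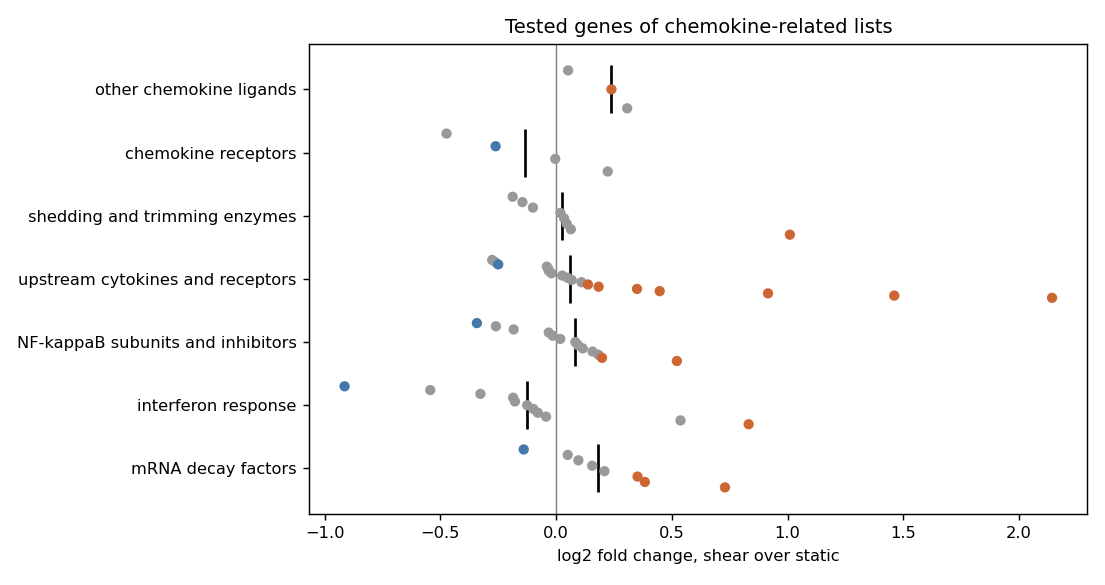
Each row is a list of genes related to chemokines and the x axis is the log2 fold change of shear over static; points are tested genes (orange higher, blue lower, grey not past an edgeR adjusted p of 0.05) and black bars are list medians. The largest rises are those of Il1b, Il6 and Timp3, and the lowest value is that of Irf1.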

How the data were processed

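Per the labels' protocols, stranded mRNA libraries were prepared from total RNA of rat cartilage superficial layer cells. The authors deposited raw counts per gene with summed exon lengths, in the layout of featureCounts, per the file headers. Tools listed in the submitters' processing notes are edgeR 3.12.1, Subread 1.5.1 with featureCounts, and Trimmomatic 0.36. The sources used here name no aligner, genome build, annotation or strand setting, and no treatment of multiply matching or duplicate reads. Columns were matched to samples by the names that the labels repeat, and groups follow the titles. Counts of 1 to 20 were even in 71.4% to 72.2% of cases, so counting error alone was not used for any comparison. Replicates differed beyond sampling noise (chi-square over degrees of freedom 5.61 to 8.25).

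Counts were filtered with filterByExpr (minimum count 10), scaled by TMM and tested with edgeR 4.0.16 in R 4.3.3 (two-sided quasi-likelihood test, no covariates, Benjamini-Hochberg over all 13945 genes tested, threshold 0.05). Without adjustment 4102 genes had a p under 0.05. SEs were obtained by dividing the size of the log2 fold change by the root of the F statistic, and the 95% interval uses the fit's degrees of freedom. CPM and FPKM use TMM-scaled totals; FPKM depends on the annotated exon length. Alternatives were other scalings, filters, DESeq2 1.42.0, limma-voom (limma 3.58.1), a replicate block, halved counts and leaving out each library. Ratios used exact permutation tests (scipy 1.17.1). On simulated counts with 13803 genes tested, 90.9% of genes changed by 1 on the log2 scale were called. The share was 75.3% for a change of 0.5 and 0.0588% for unchanged genes. Whether these rates hold for the measured libraries was not tested.

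The 10 chemokines and all lists were chosen with earlier results of these data known. Of each pathway list the text names up to 6 called genes by size of change and the tested one with the highest CPM; 1 gene that this rule selects is not reported here. Other genes, marker genes included, were named after their values were seen. Ackr1, Col1a2, Itgam and Pecam1 were not matched and were not used here.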

Additional observations from a re-analysis of the deposited data

How the results depend on the processing

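Ccl2, Ccl7 and Cxcl1 kept their direction and their call under all 15 alternatives, none of which changed how reads were assigned to genes. The log2 fold change ranged from 1.03 to 1.12 for Ccl2, from 0.70 to 0.79 for Ccl7 and from -0.30 to -0.20 for Cxcl1. Cxcl6 (0.036 to 0.11) and Cxcl12 (0.033 to 0.12) kept their sign and were called under none of them, with adjusted p-values from 0.14 to 0.63 and from 0.11 to 0.69. Cxcl2 kept its sign and was not called under the 14 that tested it (0.018 to 0.51). The log2 fold change of Cxcl16 turned negative with upper-quartile factors (-0.017), with library totals alone (-0.041), and in some fits without 1 library, where it lay between -0.017 and 0.067. The numbers 1 to 3 showed no sign of pairing the libraries: deviations of same-numbered libraries correlated at -0.0231, -0.0614 and 0.0192, and no static library correlated best with its own number. Such correlations cannot show whether same-numbered libraries shared an animal or dish. With a replicate block 1372 genes were higher and 964 lower, against 1508 and 1075, and no chemokine call changed. Library totals alone gave 1730 lower and 1124 higher genes and moved the median log2 fold change of all genes by -0.0499. Counts of list members under these settings were examined after seeing the data. Among receptors the lower count was 0 without the low-count filter and with DESeq2, and 0 to 1 without 1 library. With library totals alone the shedding list held 1 lower, the upstream list 4 higher and the interferon list 2 lower genes. The NF-kappaB list held 1 higher gene with library totals alone or upper-quartile factors and 0 to 2 without 1 library. The decay list held 0 lower genes with the replicate block and 0 to 1 without 1 library. Of 20 called list genes 11 kept their call under every alternative that tested them. The causes were not tested. Depth limits Ccl20, Cxcl10, Cx3cl1 and Cxcl2, whose counts could not separate a change of the size seen for Ccl7 from no change.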

Other observations

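The macrophage lysozyme gene Lyz2 was uneven among static libraries, with 51 counts in replicate 1, 12 in replicate 2 and 6 in replicate 3, and 4, 2 and 4 counts in shear replicates 1 to 3. Ptprc, the pan-leukocyte gene, also had its most counts in static replicate 1 (11, against 2 and 4 in the other static libraries). So did Cd68 (28, 27 and 16 counts in static replicates 1 to 3) and Cd3e (2, 0 and 0). Other leukocyte markers went the other way. Cd14 (176, 219 and 185), Csf1r (57, 78 and 92) and Fcer1g (4, 6 and 6) had their fewest static counts in replicate 1. Ccl2 was lowest in static replicate 1, at 326 CPM, and Cxcl1 highest, at 308 CPM against 274 and 288 CPM. A link between these markers and the chemokine levels was not tested. Without static replicate 1 the log2 fold change of Ccl2 was 1.05 and that of Cxcl1 -0.20 (edgeR adjusted p = 4.7e-14 and 0.014). The chemokine calls were then the same, with 2 higher and 1 lower.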
